A study of Petromyzon marinus with 6 samples.

Results

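In embryos of the sea lamprey, Petromyzon marinus, 48 of 87262 assembled transcript units were nearly uncounted on days 1 and 2 after fertilization and were counted on day 2.5 and again on day 3. They were chosen by 4 values. Each had under 0.5 CPM, the unit in which the levels are given here, on day 1 and on day 2, and 1.5 CPM or more on day 2.5 and on day 3. A transcript unit here is a component of a de novo assembly, that is, all contigs whose identifiers differ only in their sequence number, and its counts are the sum over those contigs. CPM stands for that sum as counts per 1000000 counts of the library. The study made 6 RNA-seq libraries to follow gene expression through early development, 1 for each of 6 stages: days 1 and 2, day 2.5, and days 3, 4 and 5. The labels name whole embryos as the tissue of every library and give no genotype, treatment, number of embryos or spawning. With 1 library per stage no difference between stages has a replicate check, so no test is given, and every interval covers counting error only. The RNA is from whole embryos, so a smaller number of cells that make a transcript and less of it per cell cannot be told apart.

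A fertilized egg divides at first on RNA that the mother stored in it, and the embryo's own genome is switched on during the blastula stage, after which stored RNA is broken down and new transcripts accumulate. Lampreys are jawless vertebrates, and the sea lamprey is also known for discarding part of its germline genome from the cells of the body early in embryogenesis. Transcripts that appear between the early cleavages and gastrulation are therefore of interest in this animal. The deposited files do not pair contigs with genes: 0 of 145913 contig identifiers occurred in the reference table of 45433 sea lamprey genes. No function is therefore given to any member. The 4 members named by identifier below are the 2 with the highest and the 2 with the lowest ratio of day 5 to day 3 among the 17 with 100 or more counts in the higher of those libraries, and the others are identified by their level or their contigs.

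All 48 members already had a trace of signal on day 2. The count there was 1 at the lowest, 6.05 at the median and 8.50 at the highest, while on day 1 the counts ran from 0 to 8 with a median of 1 and 23 members had none. In 45 of the 48 the CPM on day 2 was above that on day 1. With 3 counts taken as its limit, a count of 0 on day 1 allows a level of up to 0.137 CPM. The members thus entered the day 2.5 library from a low level rather than from a measured absence. These days chose the members, so their values describe the choice.

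At day 2.5 the members had 1.52 CPM at the lowest, 2.01 CPM at the median and 7.45 CPM at the highest. The ratio of day 2.5 to day 2 ran from 3.15 to 39.2. At day 3 the lowest was 1.54 CPM, the median 2.91 CPM and the highest 93.6 CPM, and 34 members were higher on day 3 than on day 2.5 while 14 were lower. Most members lay close to a limit. At day 2 the value just inside the limit was 0.483 CPM and the value just outside it 0.505 CPM, and 35 members were within 0.25 CPM of the limit. The corresponding values on day 2.5 were 1.52 and 1.47 CPM, with 16 members within 0.25 CPM, and on day 3 they were 1.54 and 1.496 CPM, with 5 members.

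Counting error alone spans these limits for most of the set. The exact 95% Poisson interval stayed under 0.5 CPM on day 2 in 7 members and under 0.5 CPM on day 1 in 42. It stayed at or above 1.5 CPM on day 2.5 in 21 members and on day 3 in 33. All 4 intervals were clear of the limits in 4 members. With library totals scaled by TMM, a factor that compares the bulk of transcripts between libraries, the same limits chose 51 components, of which 29 were among the 48, or 60.4% of the 48 and 56.9% of the 51. The factors were 1.20 for day 2.5 and 0.877 for day 3, so TMM raises each ratio of day 3 to day 2.5. The split of 34 members higher and 14 lower on day 3 thus depends on the scaling and was not recounted. With 0.5 and 1.5 taken as deposited TPM in place of CPM, 243 were chosen. Of these 15 were among the 48, or 31.2% of the 48 and 6.17% of the 243. The limits are not equal in the 2 units. The members' median was 0.343 CPM and 0.635 TPM on day 2, and 2.01 CPM and 4.27 TPM on day 2.5. The set is therefore a sample of low transcripts that crossed a line between days 2 and 2.5, and its exact size depends on where the line lies.

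**Figure D1:**
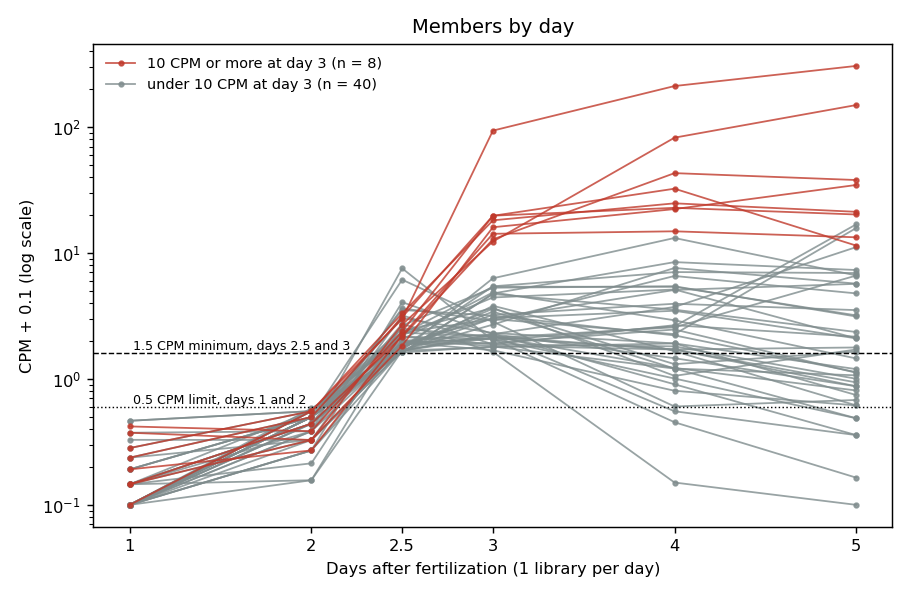
CPM plus 0.1 on a log axis for each of the 48 members on days 1 to 5, with 1 line per member. The choice itself holds the lines under 0.5 CPM on days 1 and 2 and at 1.5 CPM or more on days 2.5 and 3. The 8 members with 10 CPM or more on day 3 had 11.4 to 306 CPM on day 5, and the 40 others 0 to 16.8 CPM.

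After day 3 the members took different courses. Days 4 and 5 had no part in the choice of members, and day 3 entered it only as a minimum. At day 4 the members ran from 0.0504 to 212 CPM with a median of 2.49 CPM, and on day 5 from 0 to 306 CPM with a median of 2.00 CPM. The highest level was above that of day 3 on both days, and the lowest was below the 1.5 CPM that the choice had required on day 3. In 28 members, or 58.3%, the level was 1.5 CPM or more on day 5, and in 26 of these on day 4 as well. Of the 31119 components with 60 or more counts in all, 63.3% had 1.5 CPM or more on day 5. In 6 members, or 12.5%, the day 5 level was under the 0.5 CPM that marked the early days, against 16.6% of those components.

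From day 3 to day 4 as many members were higher as lower, at 24 each. Folds were taken on CPM plus 0.5, which understates the change of low components, and a 4-fold call also required a ratio whose 95% counting interval, by the exact Clopper-Pearson method, excludes 1. By this rule 1 of the 48 was 4-fold higher on day 4, against 2.10% of the 31119 components with 60 or more counts in all, and 0 were 4-fold lower, against 2.20%. With TMM, DESeq2 size factors or the deposited TPM, a level divided by transcript length, the split was 1 higher and 1 lower. Under these scalings 2.63% to 3.16% of all tested components were 4-fold higher and 1.63% to 3.55% lower. The median log2 fold of day 4 over day 3 was 0.02 in the members and -0.12 in all tested components.

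From day 4 to day 5, a step whose days the choice did not use, 12 members were higher and 36 lower. Of the 48, 2 were 4-fold higher on day 5 than on day 4, against 1.34% of all tested components, and 0 were 4-fold lower, against 0.585%. Small decreases made up most of the step: the median log2 fold was -0.36 in the members and 0.07 in all tested components. In the 321 components that met every limit but that of day 3, it was 0.41, with 210 higher and 96 lower. The day 3 minimum thus bears on this step too, and the difference between members and all components is a description. Counting intervals lay wholly below 1 in 18 members, wholly above 1 in 7, and held 1 in 23. Among the 31119 tested components they lay below 1 in 6681, above 1 in 9584, and held 1 in 14854. The median of the members was below that of all components under each scaling, by 0.43 log2 units with library totals and by 0.44, 0.43 and 0.51 with TMM, DESeq2 size factors and TPM. TMM and DESeq2 size factors scale all components of a library by 1 factor. They could thus hardly move this difference and give no separate support for it.

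Over the whole interval from day 3 to day 5, 18 members were higher and 30 lower. At day 5, 4 members were 4-fold higher than on day 3, against 4.76% of all tested components, and 3 were 4-fold lower, against 4.47%. With the deposited TPM the split was 3 higher and 6 lower, against 5.56% and 6.72% of all tested components. The median log2 fold was -0.69 in the members and -0.05 in all tested components. Every member had to reach 1.5 CPM on day 3, which 63.0% of all tested components did, so a fold over day 3 is lowered by the choice and nothing is read from this difference. In the 321 components that met every limit but that of day 3 the same median was 0.79. Set against day 2.5 instead, a comparison added after the data were seen whose earlier day chose the members, 8 members were 4-fold higher on day 5 and 3 lower, against 8.71% and 15.0% of all tested components. With TMM or with DESeq2 size factors 13 members were higher and 2 lower. The shares of all tested components are not given under these scalings. In 41 of the 48 none of the 3 comparisons among days 3, 4 and 5 was called 4-fold. No such share is given for all tested components. Since 0.5 CPM is added, a low member can miss the call. A single contig of 925 nt, not called, had a ratio of day 5 to day 3 of 0.122, with an interval of 0.0318 to 0.335.

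**Figure D2:**
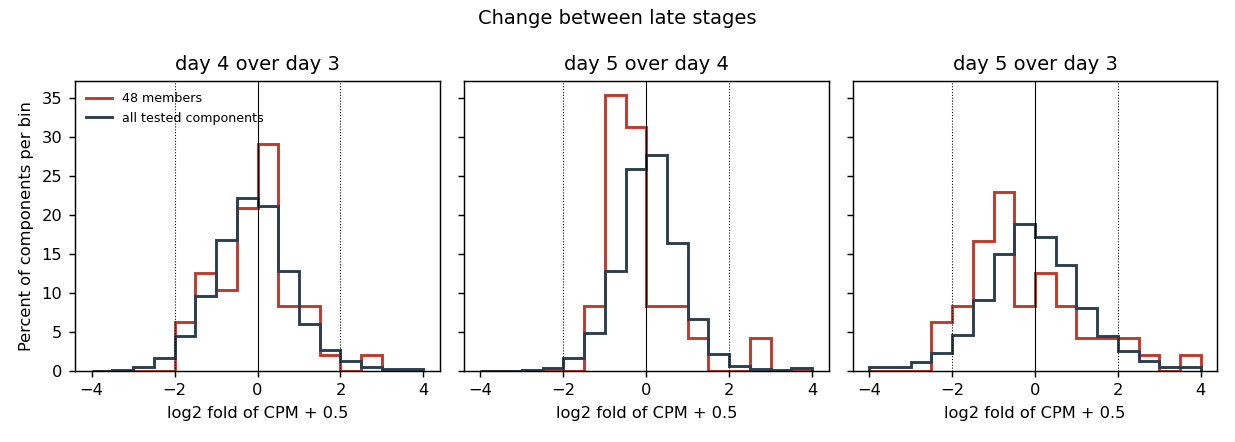
Distribution of the log2 fold of CPM plus 0.5 between late stages for the 48 members and for all 31119 tested components, in bins of 0.5 with folds beyond 4 placed in the outermost bin. Dotted lines mark 4-fold. The members lie to the left of all components on day 5 over day 4 (medians -0.36 and 0.07). The panels over day 3 have medians of 0.02 and -0.12, then -0.69 and -0.05. Day 3 helped to choose the members, so all panels are a description.

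A small group of 8 members, those with 10 CPM or more on day 3, went on to higher levels on day 4. They were set apart after the values had been seen. All 8 were higher on day 4 than on day 3, with a median log2 fold of 0.59 and a range of 0.06 to 2.70. The lowest was a single contig of 722 nt, with a ratio of 1.05 and an interval of 0.887 to 1.23, which holds 1. Of the 40 others 16 were higher and 24 lower, with a median of -0.24. Among all 31119 tested components 13901 were higher in this step. From day 4 to day 5, 3 of the 8 were higher and 5 lower. Set against day 3, 6 of the 8 were higher on day 5 and 2 lower. At day 2.5 these 8 had 1.74 to 3.21 CPM, inside the range of the 40 others, which reached 7.45 CPM. Across the 48 members the Spearman correlation of TPM with that of day 5 was 0.16 for day 2.5, 0.61 for day 3 and 0.93 for day 4. Over all tested components it was 0.57, 0.76 and 0.89. The choice confined the day 2.5 levels of the members to a narrow range, and all points of a day share 1 library.

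The member with the most counts on day 5 was a single contig of 1285 nt. It had 0 counts on day 1, 0.455 CPM on day 2, 2.88 CPM on day 2.5, 93.6 CPM on day 3, 212 CPM on day 4 and 306 CPM on day 5. Each later library was thus above the one before. Its ratio of day 4 to day 3 was 2.26, with an interval of 2.14 to 2.39, and that of day 5 to day 4 was 1.44, with an interval of 1.39 to 1.51. At day 5 it was 2233-fold above the level that 3 counts would give on day 1. That value leaves out counting error and is not a lower limit. Per length it also stood first, at 443 TPM on day 5, while the next member had 62.8 TPM.

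That next member was lcl|comp292958_c1, a component of 6 contigs with a longest contig of 4980 nt, and it had the largest ratio of day 5 to day 3. It had 0.274 CPM on day 1, 0.227 CPM on day 2, 2.60 CPM on day 2.5, 12.2 CPM on day 3, 82.3 CPM on day 4 and 149 CPM on day 5. The steepest late step was the one into day 4. At day 4 it was 6.73-fold above day 3, with an interval of 5.89 to 7.71, the only member called 4-fold higher in that step, and on day 5 it was 12.2-fold above day 3, with an interval of 10.7 to 13.96. The same ratio was 8.71 in the named member lcl|comp283038_c0, described below.

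Other members of this group changed less between days 3 and 5. A 3-contig member of 1176 nt had 2.07 CPM on day 2.5, 12.7 CPM on day 3, 43.0 CPM on day 4 and 37.9 CPM on day 5. A 6-contig member of 2681 nt had 1.74, 15.9, 22.2 and 34.6 CPM on the same days and was the only other one of the 8 to be highest on day 5. A single contig of 1413 nt had 3.21, 18.1, 24.7 and 21.1 CPM. Between days 3 and 5 these 3 differed by ratios of 2.98, 2.17 and 1.17, each with an interval above 1.

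The summed level of the set was higher on each later day, while its median was not. The choice fixed the rise from day 2 to day 2.5, and only days 4 and 5 had no part in it. The 48 members together had 3.42 CPM on day 1, 15.9 CPM on day 2, 112 CPM on day 2.5, 322 CPM on day 3, 570 CPM on day 4 and 716 CPM on day 5. At day 5 that was 0.0716% of the library's counts, with an exact 95% Clopper-Pearson interval of 0.0702% to 0.0729%. The leading member took 42.7% of the members' counts on day 5 and the leading 6 took 79.5%. At day 2.5 the 6 with the most counts had taken 24.7%. Without the leading member the sum was 229 CPM on day 3, 359 CPM on day 4 and 410 CPM on day 5. The same 2 members led on days 4 and 5 and took 51.5% of the members' counts on day 4 and 63.6% on day 5. All other members together had a lower sum on day 5 than on day 4, so the rise in that step was that of the leading 2.

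**Figure D3:**
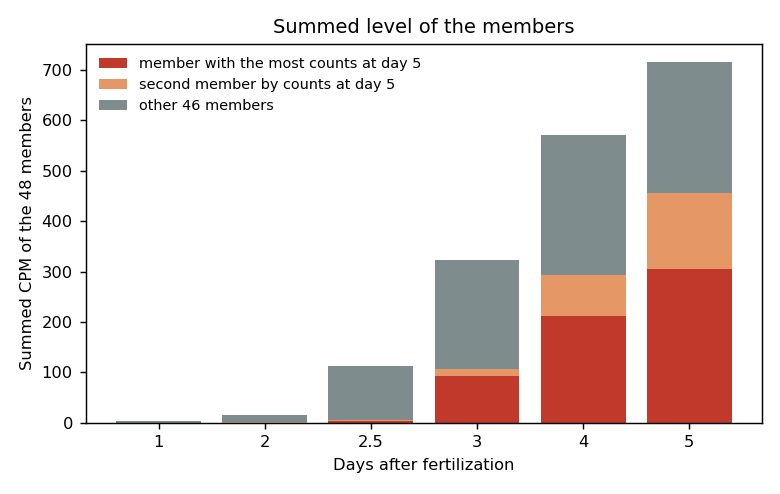
Summed CPM of the 48 members at each day, as stacked bars that start at 0, with the 2 members that had the most counts on day 5 shown apart from the other 46. The sum is 112 CPM on day 2.5 and 716 CPM on day 5, and the leading member makes up 42.7% of the day 5 bar.

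Another course was low through days 3 and 4 and higher on day 5. The member lcl|comp283038_c0, with 14 contigs, had 0 counts on day 1, 0.284 CPM on day 2, 7.45 CPM on day 2.5, 1.93 CPM on day 3, 2.52 CPM on day 4 and 16.8 CPM on day 5. Its summed level was thus high in the libraries of days 2.5 and 5 and low in both between them. The sum joins contigs of unlike course. A contig of 1533 nt had 133, 1, 40 and 52 counts on days 2.5, 3, 4 and 5, and one of 1491 nt had 2, 35, 2 and 189. At day 5 the sum was 6.66-fold above day 4, with an interval of 4.90 to 9.20. A 2-contig member of 1430 nt was 7.23-fold higher on day 5 than on day 4, with an interval of 5.21 to 10.3, at 15.7 CPM against 2.17 CPM. It had been level before that, with 2.23 CPM on day 2.5 and 2.89 CPM on day 3. A single contig of 2328 nt had 3.97, 2.17, 3.63 and 11.0 CPM on days 2.5, 3, 4 and 5, and its ratio of day 5 to day 3 was 5.09, with an interval of 3.65 to 7.24. Of the 48, 2 were higher at both days 2.5 and 5 than at both days 3 and 4, and 11 were lower. Day 2.5 helped to choose the members. No such share is given for all tested components, so nothing is read from these counts.

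Most members had a lower level on day 5 than on day 4, which held for 14230 of the 31119 tested components. Of the 48, 19 were lower at each of the last 2 steps, 17 were higher on day 4 and lower on day 5, 7 were higher at both steps, and 5 were lower on day 4 and higher on day 5. The highest library was that of day 2.5 in 11 members, of day 3 in 13, of day 4 in 16 and of day 5 in 8. The choice kept days 1 and 2 from being highest and set a minimum on days 2.5 and 3. Neither the courses nor the highest days are given for all tested components, so these counts only describe the members. The count for day 2.5 depends on the scaling, since 2 members were highest on day 2.5 with TMM or with DESeq2 size factors. Among the 40 members under 10 CPM on day 3, the median was 1.88 CPM on day 2.5, 2.41 CPM on day 3, 1.97 CPM on day 4 and 1.45 CPM on day 5.

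The 2 named members with the lowest ratio of day 5 to day 3 did not pass 4-fold. The component lcl|comp286162_c3, with 7 contigs, was one of the 8 with 10 CPM or more on day 3. It had 2.99 CPM on day 2.5, 19.6 CPM on day 3, 32.3 CPM on day 4 and 11.4 CPM on day 5. Its level on day 5 was 0.351 of that on day 4, with an interval of 0.296 to 0.416, and 0.578 of that on day 3, with an interval of 0.481 to 0.691. The single contig lcl|comp278913_c0, of 2623 nt, had 2.56 CPM on day 2.5, 5.20 CPM on day 3, 5.34 CPM on day 4 and 3.03 CPM on day 5. Its ratio of day 5 to day 3 was 0.583, with an interval of 0.405 to 0.828. Both intervals of day 5 over day 3 lay below 1. The 2 members were picked for their low ratio, and day 3 helped to choose the set. Nothing is read from these 2 intervals.

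A few members were counted on days 2.5 and 3 and had nearly gone by day 5. The 6 members under 0.5 CPM on day 5 had 1.52 to 2.64 CPM on day 2.5, 1.54 to 2.17 CPM on day 3, 0.0504 to 1.11 CPM on day 4 and 0 to 0.387 CPM on day 5. On day 3 these levels were all below the median of the 48. A single contig of 562 nt had 1 count on day 1, 5 on day 2, 48.5 on day 2.5, 32 on day 3, 1 on day 4 and 0 on day 5. With the day 5 level set to that of 3 counts, it was 7.96-fold lower there than on day 3. The exact interval of its ratio of day 5 to day 3 ran from 0 to 0.164. A 4-contig member of 1827 nt had 38 counts on day 2.5, 41 on day 3, 7 on day 4 and 1 on day 5. These are 2 of the 3 members called 4-fold lower on day 5 than on day 3. The last of the 3, of 983 nt, had 0.516 CPM on day 5 and 3.71 CPM on day 3.

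Components that started on day 2 or on day 3 by like limits were more numerous. There were 1294 with under 0.5 CPM on day 1 and 1.5 CPM or more on days 2 and 2.5, and 520 with under 0.5 CPM on days 1, 2 and 2.5 and 1.5 CPM or more on days 3 and 4. A further 321 met every limit of the 48 except the minimum on day 3. The 3 sets crossed on day 3, with medians of 2.91 CPM in the 48 members, 2.84 CPM in those starting on day 2 and 2.72 CPM in those starting on day 3. At day 5 their medians were 2.00, 1.03 and 3.52 CPM in the same order. The share back under 0.5 CPM on day 5 was 12.5% of the 48 members, 29.6% of those starting on day 2 and 5.19% of those starting on day 3, against 16.6% of all tested components. Day 3 was a criterion for the 48 members and for those starting on day 3, but not for those starting on day 2. Day 4 was a criterion only for those starting on day 3. The medians and shares of the 3 sets are thus a description, and these differences were not tested.

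In the step from day 4 to day 5 the median log2 fold was -0.36 in the 48 members, -0.75 in the components starting on day 2 and -0.27 in those starting on day 3. The same step was 0.07 at the median of all tested components, so these 3 sets lay below it. In the 321 components that missed only the day 3 minimum it was 0.41, above that of all tested components. The 4-fold higher share in this step was 4.17% of the 48 members, which is 2 components, 0.155% of those starting on day 2 and 0.192% of those starting on day 3. It was 1.25% of the 321 components that missed only the day 3 minimum and 1.34% of all tested components. Those starting on day 3 had to reach 1.5 CPM on day 4, so their fold in this step is lowered by the choice. In the 321 components that missed only the day 3 minimum the median was 0.144 CPM on day 3, 0.403 CPM on day 4 and 0.645 CPM on day 5.

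**Figure D4:**
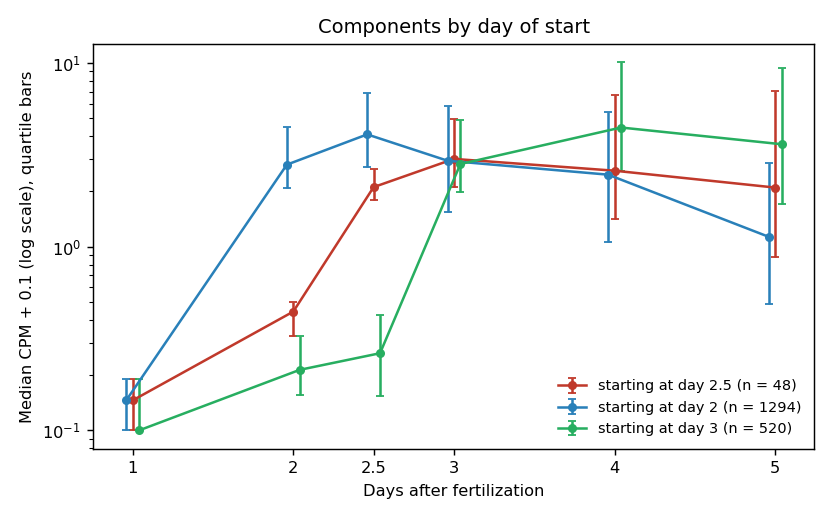
Median CPM plus 0.1 on a log axis at each day, with bars from the lower to the upper quartile, for the 48 components starting on day 2.5, the 1294 starting on day 2 and the 520 starting on day 3. The medians meet on day 3, which helped to choose the first and the last of these sets. They are 2.00, 1.03 and 3.52 CPM on day 5.

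The lengths of the members were close to those of all tested components. Their longest contigs ran from 517 to 4980 nt with a median of 1182 nt, against 1293 nt in all tested components, 1289 nt in those starting on day 2 and 1118 nt in those starting on day 3. The components that missed only the day 3 minimum were shorter, with a median of 859 nt. Of the 48, 29 were single contigs, or 60.4%, against 57.0% of all tested components, and the other 19 had up to 14 contigs. In 39 members 1 contig met all 4 limits by itself, which the 29 single contigs do by definition. Of the 326 contigs in the whole assembly that met the limits alone, 39 were inside members.

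By their identifiers, some members are pieces of assembly graphs of which other pieces were counted throughout. The number after comp in an identifier is taken here to mark a graph, which the sources used do not state. Components with the same number and another c number are called sisters here. A sister was present for 15 of the 48 members, or 31.2%, against 47.4% of all tested components. In 10 of these 15 the sisters together had 1.5 CPM or more on day 1 or day 2, against 12191 of 14764 tested components with a sister. These are 20.8% of the 48 members and 39.2% of all tested components. The 3-contig member of 1176 nt was one of them: its sisters summed to 454 CPM on day 1, 330 CPM on day 3 and 432 CPM on day 5, while it had 1 count on day 1. In another, a 4-contig member of 976 nt, the sisters had 106 CPM on day 1, 86.9 CPM on day 2.5, 24.2 CPM on day 3 and 1.81 CPM on day 5. The member itself had 0 counts on day 1, 2.23 CPM on day 2.5, 2.07 CPM on day 3 and 1.68 CPM on day 5. Whether a member and its sisters belong to 1 gene was not tested.

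In 2 graphs a pair of components were both members, so the 48 come from 46 graphs. The first pair, single contigs of 966 and 722 nt, kept nearly the same level per length: 4.91 and 6.34 TPM on day 2.5, 40.2 and 39.9 TPM on day 3, 46.1 and 41.5 TPM on day 4, and 39.7 and 36.1 TPM on day 5. Both stood among the 8 with 10 CPM or more on day 3, so that group rests on 7 graphs. Their other sisters had 31.9 CPM on day 1, 38.8 CPM on day 3 and 41.7 CPM on day 5. The second pair, of 552 and 688 nt, had 3.56 and 3.51 CPM on day 3, 0.957 and 1.21 CPM on day 4, and 1.61 and 1.55 CPM on day 5. Components of a pair are not separate evidence for a course.

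Which contig carried a member's counts often changed between libraries. Of the 15 members with 2 or more contigs and 20 or more counts at each of days 2.5, 3, 4 and 5, 7 had the same leading contig in all 4 libraries and 8 did not. The corresponding share with another leading contig was 53.3% in these members and 44.8% in all 8010 such components. In 2 of the 15 the libraries of days 2.5 and 5 had one leading contig and those of days 3 and 4 another. In 2 others days 2.5 and 4 stood against days 3 and 5, and in 0 did days 2.5 and 3 stand against days 4 and 5. Over all such components these 3 arrangements were found in 288, 74 and 576.

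One such change, picked after the values were seen, was in a 2-contig member whose contigs were 2015 and 2026 nt long. The shorter contig took 20.9% of the counts on day 2.5, 100% on day 3, 100% on day 4 and 0% on day 5, where all 21 counts went to the longer one. The summed level of this member was 1.96 CPM on day 2.5, 4.77 CPM on day 3, 2.82 CPM on day 4 and 1.35 CPM on day 5. In lcl|comp283038_c0 a contig of 1533 nt took 97.1% on day 2.5 and 80.0% on day 4, and one of 1491 nt took 87.5% on day 3 and 72.7% on day 5. In lcl|comp286162_c3 a contig of 1425 nt took 76.5% on day 2.5, 18.6% on day 3 and 0% on days 4 and 5. A contig of 970 nt had 7.27% on day 2.5 and 73.6% on day 4. RSEM divides a fragment among the contigs it matches, and in the members 48.9% of the nonzero contig counts were not whole. The part of this division in the changes was not tested.

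**Figure D5:**
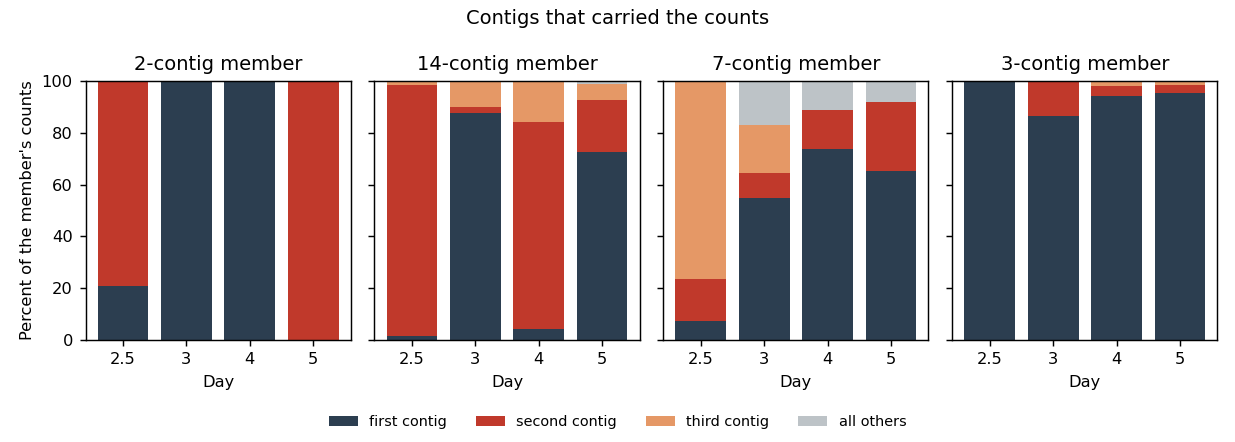
Percent of a member's counts on each of its 3 leading contigs and on all its others, ordered by their counts over days 2.5 to 5, in 4 members of 2, 14, 7 and 3 contigs. The first 3 panels change their leading contig between libraries, and the 3-contig member keeps 86.5% or more of its counts on 1 contig.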

How the data were processed

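The 6 libraries were paired-end RNA-seq of whole embryos, with RNA extracted by Trizol and NEBnext libraries, per the labels' protocols. The submitters' processing notes name RSEM. How the contigs were assembled, how reads were aligned and which RSEM version was used is not given in the sources used here. As stated per the file headers, the authors deposited for each contig an expected count, which is an estimated number of fragments and not normalized, and a TPM, which is divided by effective length. Deposited FPKM values were not used. Of the nonzero deposited expected counts 42.2% were off a whole number by more than 0.005, and 48.9% in the members. Library totals ran from 15503408 (day 5) to 21910029 (day 1), so 1 count is 0.0456 to 0.0645 CPM.

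Counts were summed by component and divided by library totals; sums were rounded for intervals. All 48 members were among the 31119 components with 60 or more counts. The members, comparisons and lists were chosen with earlier results of these data known. The rule for named members took the 2 highest and 2 lowest ratios of day 5 to day 3. Alternatives were edgeR 4.0.16 TMM, DESeq2 1.42.0 size factors, deposited TPM, pseudocounts, fold thresholds and the limits of the choice. Fold calls were tested on simulated data. The work used Python 3.11.15 with scipy 1.17.1, numpy 2.4.6, pandas 2.3.3 and matplotlib 3.10.9, and R 4.3.3.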

Additional observations from a re-analysis of the deposited data

How the results depend on the processing

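The number of members, 48, depended most on the limits: 12 with under 0.25 CPM on days 1 and 2, 241 with under 1 CPM, 2 with 3 CPM or more on days 2.5 and 3, 369 with no condition on day 3, 243 with the deposited TPM in place of CPM and 326 for single contigs. With TMM 51 were chosen. In the calls of change, the members 4-fold higher on day 4 than on day 3, 1, became 6 at a 2-fold threshold and 0 at 8-fold, and those lower, 0, became 1 with TMM, 1 with DESeq2 size factors, 1 with TPM and 9 at 2-fold. Of all tested components 10.8% were higher and 16.2% lower at 2-fold in this step, and 0.389% were higher at 8-fold. From day 4 to day 5 the 2 higher became 4 at 2-fold, 0 at 8-fold and 0 with a pseudocount of 5. The 0 lower became 4 at 2-fold. Of all tested components 10.2% were higher and 7.02% lower at 2-fold in this step. At 8-fold 0.488% were higher, and with a pseudocount of 5 it was 0.180%. From day 3 to day 5 the 4 higher became 8 at 2-fold, 1 at 8-fold and 1 with a pseudocount of 5. The 3 lower became 15, 0 and 0 under the same settings and 6 with TPM. Of all tested components 17.4% were higher and 18.2% lower at 2-fold in this step. The shares were 1.01% and 1.03% at 8-fold, 0.646% and 0.916% with a pseudocount of 5, and 5.56% and 6.72% with TPM. The 8 higher on day 5 than on day 2.5 became 13 with TMM and 13 with DESeq2 size factors, with no share of all tested components given. A pseudocount of 5 shrinks the folds of low components by construction; the other causes were not tested. The median log2 fold of the members was 0.22 on day 4 over day 3 with DESeq2 size factors, against 0.02, and on day 5 over day 4 it was -0.55 with DESeq2 size factors and -0.47 with TPM, against -0.36. DESeq2 size factors moved the median of all tested components to 0.04 and -0.11 in these 2 steps, against -0.12 and 0.07. With the same factors 3.16% of all tested components were 4-fold higher and 1.63% lower on day 4 than on day 3, against 2.10% and 2.20%, and 1.16% higher and 1.19% lower on day 5 than on day 4, against 1.34% and 0.585%. Members highest on day 2.5, 11, became 2 with TMM and 2 with DESeq2 size factors. Without the member with the most counts in that library, the members' share of the counts was 0.0104% on day 2.5, 0.0229% on day 3, 0.0359% on day 4 and 0.0410% on day 5, against 0.0112%, 0.0322%, 0.0570% and 0.0716%. The alternative of 100 counts per library for the leading contig left 0 members and gave no value. No filter on low counts changed no count of members, since all 48 pass it. The comparison with day 2.5 was added after seeing the data. No paired analysis was possible because the 6 libraries are of 6 different stages. Counts of 0 to 8.50 on days 1 and 2 limit what can be said of the start, and a count of 0 does not show absence.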
